A study of Homo sapiens with 8 samples.

Results

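The genes described here are 88 developmental transcription factor genes whose transcripts carried at least 1 N6-methyladenosine (m6A) peak in human osteosarcoma cells, out of 8758 genes with a peak in any list. The rule matches gene names and uses no measured value: HOX, SOX, FOX, GATA, TBX, PAX, LHX, MEIS, PBX, TWIST, SNAI, DLX and MSX genes and sine oculis homeobox genes, with SOX5, FOXO1 and FOXO3 left out. A RefSeq gene table holds 170 protein-coding symbols that match the same names, and 87 of these 170 had a peak. The member left over is TWISTNB, which the name rule caught although it is not a TWIST factor: it is an older name for a subunit of RNA polymerase I. The data are 4 peak lists from MeRIP-seq, in which RNA enriched with an antibody against m6A is sequenced beside RNA that was not enriched (input). The cells were the established osteosarcoma lines U2OS and 143B, cultured in DMEM with serum. Each line was infected with lentivirus carrying a control hairpin (NC) or a hairpin against METTL14 (shMETTL14), a subunit of the m6A writer, so all 4 groups carry a hairpin. Each group has 1 input and 1 immunoprecipitated library, and only the peak lists of the 4 immunoprecipitated libraries were analysed here.

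As background, the METTL3 and METTL14 complex methylates adenosines in messenger RNA while it is made, and reader proteins that bind m6A influence how long a transcript lives and how well it is translated. Peaks of m6A are known to gather around stop codons and in 3' UTRs. HOX genes lie in 4 clusters and give cells their position along the body axis, with MEIS and PBX proteins as DNA-binding partners. SOX, FOX, GATA, TBX, PAX, LHX, DLX, MSX and sine oculis factors set cell fates in the skeleton, limbs, face and other organs, and TWIST and SNAI factors drive the mesenchymal state.

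A peak is 1 row of a list, and a peak that lies in several isoforms is listed once for each. Peaks of a list that overlap on the same strand by at least 1 bp were therefore joined to a site, and sites are counted below. An NC site with no overlapping shMETTL14 site is called lost, and an shMETTL14 site with no overlapping NC site is called gained. Neither word stands for a measured change of methylation. The authors' fold enrichment, a linear ratio, and the authors' p-value are the peak's own values. The highest fold and the lowest p-value of its peaks stand for a site. The U2OS NC, U2OS shMETTL14, 143B NC and 143B shMETTL14 lists held 11699, 10822, 12258 and 12886 sites, and values for all 4 lists are given in this order. METTL14 itself carried 3, 2, 1 and 2 sites, but a peak is no measure of transcript level, and the extent of the knockdown was not checked here. Of 9 osteoblast lineage markers, 3, 3, 2 and 3 had a peak: RUNX2 and SPARC in every list and COL1A1 in all but 143B NC, while SP7, ALPL, COL1A2, BGLAP, SPP1 and IBSP had none. Among 17 markers of other cell types, MAP2 had peaks in both U2OS lists, TUBB3 in U2OS NC, KRT18 in both 143B lists, and CD68 and KRT8 in all 4. Where a site is missing, absent methylation, absent RNA and low depth cannot be told apart, since no counts are given and transcript levels were not analysed here.

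The regulator genes had 59, 48, 73 and 72 listed genes, with 104, 79, 133 and 144 sites and 221, 152, 271 and 292 peaks. The lowest of these values belonged to U2OS shMETTL14 and the highest site count to 143B shMETTL14. In all, 39 of the 88 genes (44.3%) had a peak in every list, against 51.0% of all genes. They include the cartilage regulator SOX9, SOX4, SOX12, SOX13 and SOX18, 16 HOX genes, 11 FOX genes such as the cell-cycle regulator FOXM1, TBX3, TBX15, TBX18, SIX4, MSX2 and SNAI2. The plot of sites by gene shows the genes in the 4 lists.

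**Figure D1:**
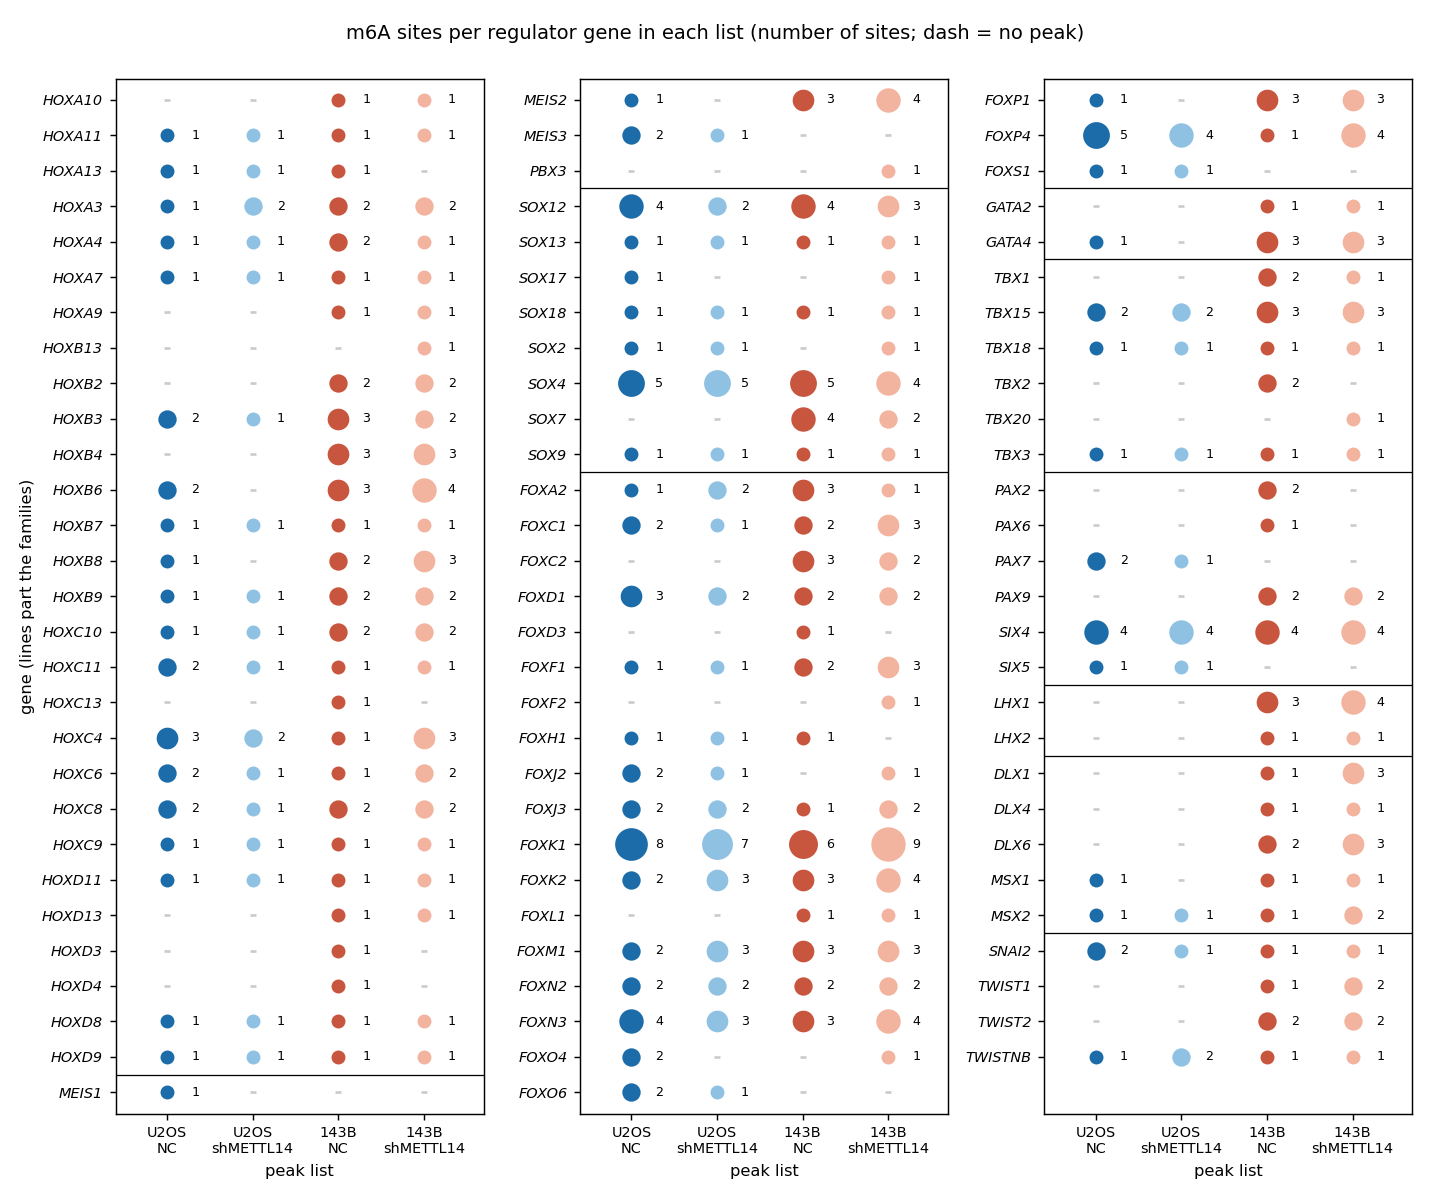
Number of m6A sites of the regulator genes (rows, in family order; genes not reported here are not drawn) in the 4 peak lists (columns), with circle area scaled to the number printed beside it and a dash for no peak. Of all 88 genes, 39 have a site in every list, 18 have sites in both 143B lists and in neither U2OS list, and 5 show the opposite pattern.

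The 2 lines differed in which regulator genes were listed. In both 143B lists and neither U2OS list stood 18 genes: HOXA9, HOXA10, HOXB2, HOXB4, HOXD13, DLX1, DLX4, DLX6, LHX1, LHX2, TWIST1, TWIST2, GATA2, TBX1, PAX9, SOX7, FOXC2 and FOXL1. They made up 28.1% of the 64 regulator genes in both 143B lists (exact 95% interval 17.6% to 40.8%), where the same share over all genes was 10.9%. Of the 18 genes, 10 had in both 143B lists a site with a p-value at or below the list's median (55.6%, against 24.8% of the 638 genes with this pattern): DLX1, DLX4, GATA2, HOXA9, HOXB2, HOXB4, HOXD13, LHX1, LHX2 and TWIST1. The opposite pattern, both U2OS lists and neither 143B list, was shown by FOXO6, FOXS1, MEIS3, PAX7 and SIX5, 10.4% of 48 regulator genes against 8.17% of all genes. That share lies near the background. By sites, 66 of 133 regulator sites in 143B NC (49.6%, 40.8% to 58.4%) had no overlapping site in U2OS NC, against 36.9% of all sites. In the other direction it was 35 of 104 (33.7%, 24.7% to 43.6%), against 34.3%. Counted as listed peaks, the shares were 134 of 271 (49.4%, against 31.4%) and 80 of 221 (36.2%, against 30.2%). With 1 list per group these shares have no replicate check, and intervals cover counting error only and treat sites as independent.

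Between NC and shMETTL14, regulator sites in U2OS were missing in the knockdown list more often than they appeared in it. Of 104 U2OS NC sites, 36 were lost (34.6%, 25.6% to 44.6%), against 31.2% of all sites in that list, a share near the background. Of 79 U2OS shMETTL14 sites, 11 were gained (13.9%, 7.16% to 23.5%), against 24.9%. In 143B, 24 of 133 NC sites were lost (18.0%, 11.9% to 25.6%), against 24.6%, and 36 of 144 shMETTL14 sites were gained (25.0%, 18.2% to 32.9%), against 32.0%. The background lies above the interval only for gains in U2OS. Where shared sites had to overlap by at least 50% of the shorter site, these gains were 19.0%, and their interval held the background of 28.2%. Counted as listed peaks, the loss in U2OS was 87 of 221 (39.4%, 32.9% to 46.1%), against 26.9%, so the distance from the background is larger where each isoform counts. The other shares of listed peaks were 9.87% gained in U2OS against 20.9%, 17.7% lost in 143B against 20.7%, and 26.0% gained in 143B against 27.3%. The plot of shares without a partner shows the site counts.

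**Figure D2:**
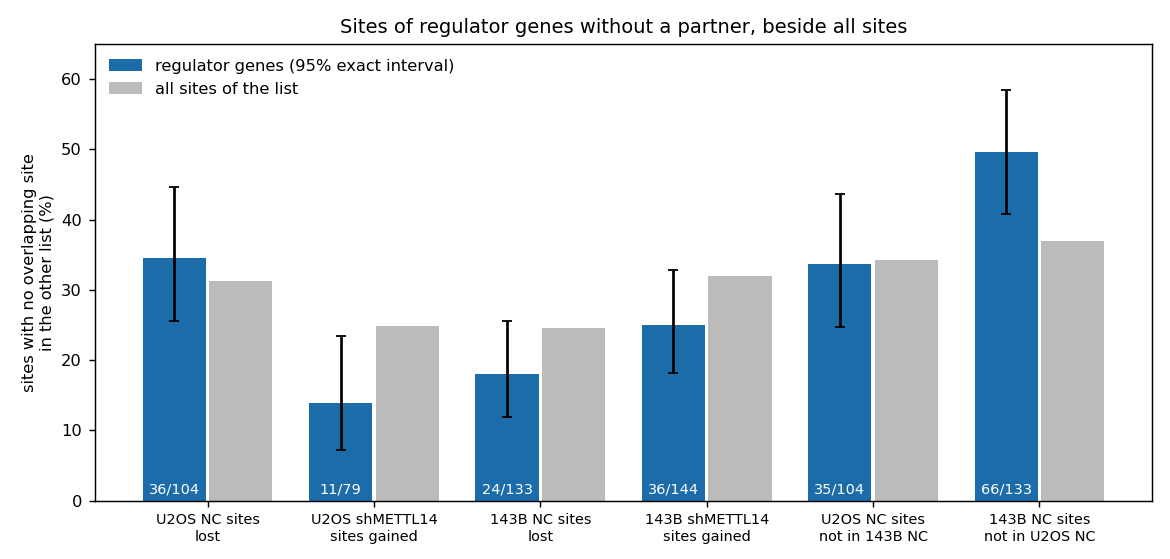
Percent of sites with no overlapping site in the list compared (y axis) for the regulator genes (blue, with exact 95% intervals and the counts at the foot of each bar) and for all sites of the same list (grey). The regulator bar lies below the grey bar for gains in U2OS, 13.9% against 24.9%, and above it for 143B NC sites that U2OS NC lacks, 49.6% against 36.9%.

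Counted as whole genes, 11 of the 59 regulator genes of the U2OS NC list had no peak in U2OS shMETTL14 (18.6%, against 16.9% of all genes). They include HOXB6, HOXB8, MEIS1, MEIS2, SOX17, FOXO4, FOXP1, GATA4 and MSX1. None of the 48 regulator genes of the U2OS shMETTL14 list was without an NC peak, which allows a share of up to 7.4%, while 12.4% of all genes were. In 143B, 9 of 73 NC genes had no shMETTL14 peak (12.3%, against 11.8%): HOXA13, HOXC13, HOXD3, HOXD4, FOXD3, FOXH1, TBX2, PAX2 and PAX6. The 8 genes of 72 with a peak in 143B shMETTL14 and none in NC (11.1%, against 15.5%) were HOXB13, PBX3, SOX2, SOX17, FOXF2, FOXJ2, FOXO4 and TBX20. No regulator gene was among those missing after the knockdown in both lines. Over all genes this pattern was also rare, held by 135 of 8758 (1.54%). Its absence among the regulator genes therefore lies near the background.

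The sites without a partner were mostly weak ones. The median p-value in U2OS NC was 7.34e-09 for the 68 shared sites and 0.000207 for the 36 lost sites, with median widths of 300 and 133 bases. In 143B NC the medians were 2.4e-07 for the 109 shared sites and 0.000473 for the 24 lost sites. The median folds differed less, 5.0 against 4.13 in U2OS NC and 4.78 against 5.0 in 143B NC. Split at the list's median p-value, 6 of the 54 stronger U2OS NC sites were lost (11.1%, against 8.03% of all sites) and 30 of the 50 weaker ones (60.0%, against 54.4%). In 143B, 0 of the 73 stronger NC sites and 24 of the 60 weaker ones (40.0%, against 43.4%) were lost. In U2OS shMETTL14, 0 of 36 stronger sites (against 5.37% of all sites) and 11 of 43 weaker sites (25.6%, against 44.6%) were gained. In 143B shMETTL14 it was 4 of 81 (4.94%, against 9.08%) and 32 of 63 (50.8%, against 54.9%). Whether a weak site that drops out of a list lost its methylation was not tested.

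**Figure D3:**
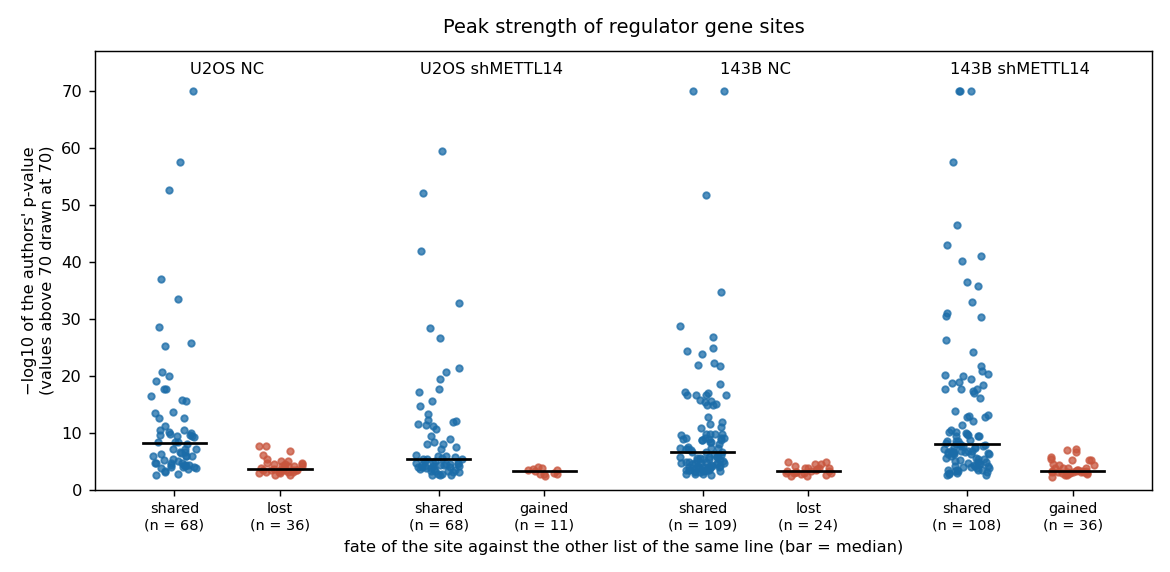
Each point is a site of a regulator gene, placed by the authors' p-value as -log10 on the y axis (values above 70 are drawn at 70), in the 4 lists and split by whether the other list of the line holds an overlapping site; bars are medians. The lost and gained sites sit at the foot of each list, with median p-values of 0.000207 and 0.000631 in U2OS and 0.000473 and 0.000491 in 143B.

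The 6 stronger lost U2OS sites lay in HOXC10, HOXC4, MEIS3, FOXP4, FOXK1 and GATA4. On hg19, the HOXC4 site covers the stop codon at chr12:54448902-54449100 on the plus strand, with a fold of 16.7 and a p-value of 4.1e-06 in U2OS NC. The same place was listed in both 143B lists, with p-values of 4.2e-08 and 4e-19. The MEIS3 site spans spliced exons around the start codon at chr19:47920540-47922515 on the minus strand, with a fold of 7.06 and a p-value of 1.4e-07, and no other list holds it. The FOXK1 site lies in the 3' UTR at chr7:4809575-4809995 on the plus strand (15.4, 2.6e-08) and was listed in both 143B lists. The FOXP4 site is in coding sequence at chr6:41557540-41557843 (2.26, 7.8e-06). The GATA4 site, in the 3' UTR, had the highest fold of all regulator sites in U2OS NC, 25.7, with a p-value of 7.4e-07. The HOXC10 site crosses the stop codon at chr12:54383170-54383497 (3.5, 2.1e-08), and an shMETTL14 site of HOXC10 lies within 100 bp of it. The 4 stronger gained sites in 143B were in the 3' UTR of HOXB8 (fold 3.04, p-value 1.1e-07), the coding sequence of DLX1 (3.18, 2.1e-07), the 3' UTR of SOX2 (27.7, 8.3e-08) and the 5' UTR of FOXO4 (23.3, 1.9e-06). Of the 69 regulator sites of U2OS NC that overlap a 143B NC site, 1 was lost in both lines, against 403 of 7686 over all genes. It lies over the start codon of HOXB6 at chr17:46675448-46675570 on the minus strand, with a fold of 19.3 in U2OS NC and 2.85 in 143B NC.

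HOX genes gave the largest number of members. Of 39 HOX genes in RefSeq, not counting a readthrough of HOXA10 and HOXA9, 28 had a peak, and 19, 17, 27 and 24 were listed in the 4 lists. Those without any peak include HOXA2, HOXA5, HOXA6, HOXB1, HOXB5, HOXC5, HOXC12, HOXD1, HOXD10 and HOXD12. The HOXB cluster differed most between the lines, with 7, 3, 16 and 18 sites. HOXA held 5, 6, 9 and 7 sites, HOXC 11, 7, 9 and 11, and HOXD 3, 3, 5 and 4. HOXB2 and HOXB4, anterior genes of the cluster, had 2 and 3 sites in each 143B list and none in U2OS. The HOXB2 site at chr17:46620017-46620434, listed at the stop codon in NC and in the 3' UTR in shMETTL14, had p-values of 7.9e-18 in 143B NC and 5e-31 in 143B shMETTL14, with folds of 5.02 and 12.2. The coding sequence site of HOXB4 had folds of 8.87 and 27.3 and p-values of 2e-17 and 1e-20.

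**Figure D4:**
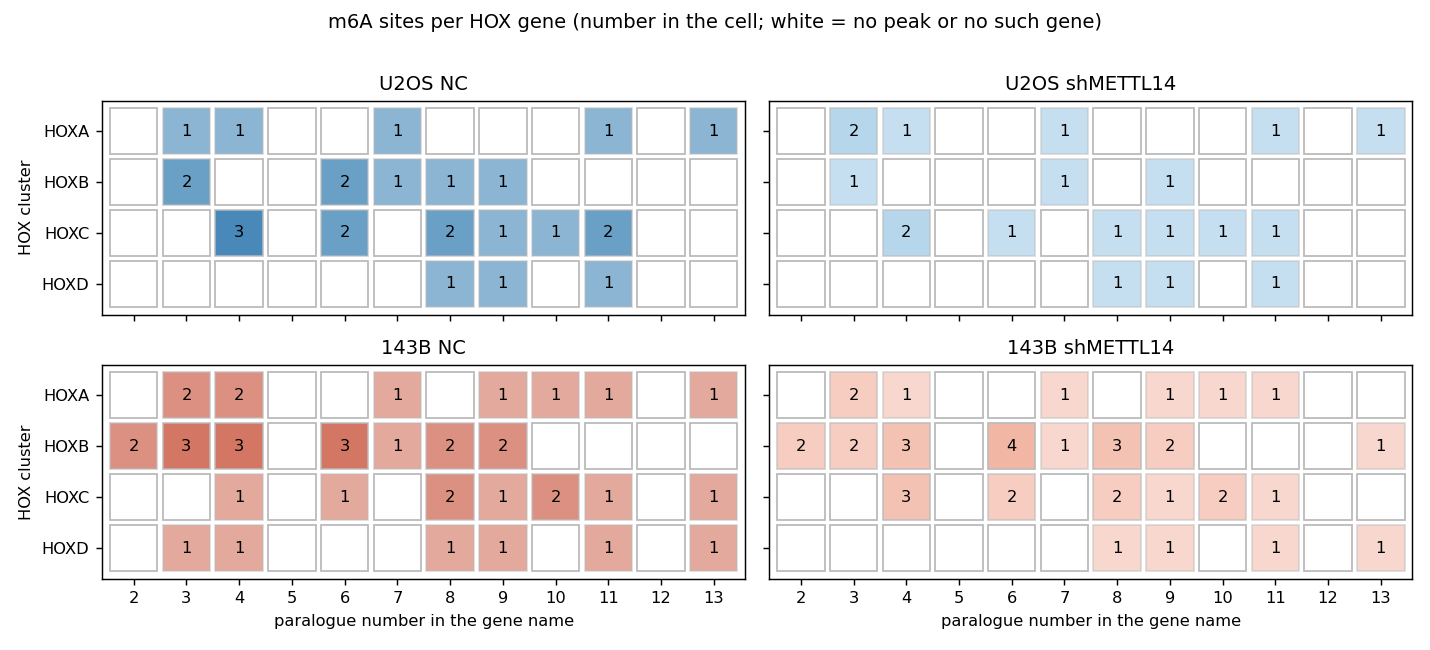
Number of m6A sites of each HOX gene, with the 4 clusters as rows and the paralogue number from 2 on as columns, in the 4 lists; white cells hold no peak or no gene of that name. The HOXB row holds 7 and 3 sites in the U2OS lists and 16 and 18 in the 143B lists.

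Several HOX transcripts carried 1 strong site at the same place in every list. HOXB7 had a stop codon site with p-values of 2e-18, 5e-14, 1.6e-25 and 1.3e-43 and folds of 6.23, 4.88, 7.34 and 6.41. HOXC9 had a stop codon site with p-values of 1e-20, 2e-15, 2.5e-16 and 6.3e-41. HOXD8 had a stop codon site with p-values of 2e-16, 6.3e-18, 9.8e-10 and 2e-18. These sites were strong in all 4 lists, with folds between 4.88 and 8.5. HOXA7, HOXA11 and HOXD11 also had 1 site that overlapped in all 4 lists. HOXC8, which had 2, 1, 2 and 2 sites, kept a site over the stop codon with p-values of 4e-09, 6.8e-08, 4e-16 and 1.3e-33. The posterior genes HOXA9 and HOXA10, which have known roles in blood and limb development, were listed in 143B alone. HOXA9 had a site with p-values of 1.3e-12 and 1e-06, which in 143B NC is also listed under the gene name RP1-170O19.20. HOXA10 had a site with p-values of 2.1e-05 and 2e-13, listed at the stop codon in NC and in the 3' UTR in shMETTL14. HOXD13, a digit gene, had a stop codon site in 143B with p-values of 7.6e-07 and 1.6e-13.

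Of the 26 HOX sites in U2OS NC, 12 were lost (46.2%, against 31.2% of all sites), and 5 of 19 were gained (26.3%, against 24.9%). In 143B, 9 of 39 were lost (23.1%, against 24.6%) and 10 of 40 gained (25.0%, against 32.0%). The gains in U2OS and the losses in 143B lie near the background. No interval was computed for shares of single families, so whether the other HOX shares differ from the background was not tested. The 12 losses in U2OS were 5 in HOXB, 6 in HOXC, 1 in HOXD and 0 in HOXA. HOXB6 went from 2 sites to none in U2OS, with folds of 19.3 and 4.49 in NC, while 143B held 3 and 4 sites of it. HOXB8 lost its only U2OS site (fold 14.1, p-value 2.1e-05), which overlaps a 143B site with p-values of 2e-29 and 5e-21. HOXC4 had 3 sites in U2OS NC, of which 2 were lost, and gained 1 in the 3' UTR. HOXB9 and HOXD9 had 1 site in each U2OS list, and for both genes the NC and shMETTL14 sites lay at different places. HOXA3 kept a coding sequence site in all 4 lists, with folds of 14.1, 10.3, 9.78 and 5.86, and HOXA4 a site at its 3' end with folds of 5.69, 14.2, 9.13 and 4.69. HOXB3 had 2, 1, 3 and 2 sites, with lowest p-values of 0.00043 and 0.00055 in U2OS and of 1.3e-22 and 7.9e-32 in 143B. HOXC6 had 2, 1, 1 and 2 sites, and HOXC10 and HOXC11 had sites in every list.

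Some HOX genes were listed in few lists. HOXC13, HOXD3 and HOXD4 were listed in 143B NC alone, with p-values of 0.0003, 0.00049 and 0.00049, and HOXD3 and HOXD4 share 1 site. HOXB13 was listed in 143B shMETTL14 alone, with a fold of 5.54 and a p-value of 0.00098. HOXA13, a distal limb gene, was listed in all but 143B shMETTL14, with p-values of 6.3e-07, 1.7e-06 and 0.00015.

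The HOX cofactors of the MEIS and PBX families had 4, 1, 1 and 2 listed genes. In U2OS NC these include MEIS1, MEIS2 and MEIS3, and 4 of the 5 sites of the families were lost, against 31.2% of all sites. A count of 5 sites is too small for a firm share. MEIS1 (fold 2.37, p-value 0.0013) had its only site of any list in U2OS NC. MEIS3 had 2, 1, 0 and 0 sites and kept a 3' UTR site with p-values of 1.2e-06 and 0.00026. MEIS2 had 1, 0, 3 and 4 sites, and its 3' UTR site was listed with folds of 8.99 in U2OS NC, 7.83 in 143B NC and 3.96 in 143B shMETTL14. PBX3 had 1 site, in 143B shMETTL14 (6.28, 0.00059). In U2OS NC the p-values of the MEIS1 site and of the MEIS2 site (0.00037) lie above that list's median of 8.51e-06, and those of both MEIS3 sites below it.

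SOX genes, high-mobility-group factors, had the lowest share of lost sites in both lines among the 4 families with more than 5 sites in every list (HOX, SOX, FOX, and PAX with sine oculis genes). Of 14 SOX sites in U2OS NC 2 were lost (14.3%, against 31.2% of all sites), and of 11 in shMETTL14 0 were gained (against 24.9%). In 143B, 1 of 16 was lost (6.25%, against 24.6%) and 2 of 14 were gained (14.3%, against 32.0%). These counts are small, and no interval was computed for them. SOX4 and SOX12 held 5 and 4 of the 14 SOX sites in U2OS NC, with lowest p-values of 2.5e-53 and 2.5e-58. Whether the low share of losses goes with the strength of these sites was not tested. SOX9 carried 1 site over its stop codon in every list, at chr17:70120058-70121130 on the plus strand, with p-values of 1e-103, 3.2e-60, 1e-106 and 1e-150. Its folds were 6.04, 5.06, 6.35 and 5.7. SOX4, a factor of progenitor cells, had 5, 5, 5 and 4 sites that cover its transcript from the 5' UTR to the 3' UTR, with lowest p-values of 2.5e-53, 1.3e-42, 1.6e-24 and 3.2e-47. SOX12, a relative of SOX4, had 4, 2, 4 and 3 sites, and its highest folds were 10.0, 19.0, 27.4 and 12.4. SOX13 and SOX18, the latter a factor of vessel development, had 1 site in each list, and those of each gene overlapped between lists.

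SOX2, a factor of pluripotent and neural stem cells, had its 3' UTR site in both U2OS lists (folds 4.57 and 9.26, p-values 3e-10 and 9.3e-06) and in 143B shMETTL14 (27.7, 8.3e-08). It had no peak in 143B NC. SOX7 had no U2OS peak, and its 4 and 2 sites in 143B had lowest p-values of 8.7e-10 and 7.6e-05. SOX17, an endoderm factor, had a coding sequence site in U2OS NC (fold 18.0, p-value 7.9e-05) and in 143B shMETTL14 (7.76, 0.00017). The site was thus present without the METTL14 hairpin in U2OS and with it in 143B.

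Among 50 FOX (forkhead) genes in RefSeq 21 had a peak, and 17, 15, 16 and 17 were listed. Of 41 FOX sites in U2OS NC, 11 were lost (26.8%, against 31.2% of all sites), and 4 of 34 were gained (11.8%, against 24.9%). In 143B, 6 of 37 were lost (16.2%, against 24.6%) and 14 of 46 gained (30.4%, against 32.0%). The losses in U2OS and the gains in 143B lie near the background. Whether the other FOX shares differ from it was not tested, as no interval was computed for them. FOXK1, a regulator of metabolism and autophagy genes, held the most sites of any regulator gene: 8, 7, 6 and 9, most of them in its 3' UTR. Its site over the stop codon and the start of the 3' UTR, at chr7:4802052-4802771, had p-values of 2e-18, 3.2e-20, 3.2e-19 and 2.5e-18. Downstream in the same 3' UTR, 3 of the 8 FOXK1 sites of U2OS NC were lost, with folds of 15.4, 15.4 and 3.28. Their p-values were 0.00036, 2.6e-08 and 0.0011. Over all genes, 31.2% of U2OS NC sites and 39.3% of those in the 3' UTR were lost, so this count lies near the background. FOXK2 had 2, 3, 3 and 4 sites, none of them lost in either line, and lowest p-values of 3.2e-34, 4e-29, 2e-35 and 3.2e-58.

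FOXN2 had 2 sites in each list, which all overlapped: a coding sequence site with p-values of 3.2e-11, 2e-11, 5e-25 and 4e-37 and a stop codon site with 7.9e-11, 7.9e-12, 1.3e-17 and 1.3e-21. FOXM1, which drives genes of mitosis, had 2, 3, 3 and 3 sites with highest folds of 3.79, 2.76, 3.16 and 2.97. Its folds were low in every list, while its lowest p-values were 3.2e-29, 2.5e-16, 2.5e-17 and 7.9e-25. FOXJ3 had a coding sequence site with p-values of 2e-21, 2.5e-27, 2e-22 and 3.2e-31. FOXN3 had 4, 3, 3 and 4 sites, and FOXP4 had 5, 4, 1 and 4. FOXP4 kept a 5' UTR site at chr6:41514194-41514464 in all lists, with folds of 18.0, 6.54, 15.0 and 9.23. FOXP1 had 1 U2OS site, which was lost (2.91, 3.6e-05), and 3 sites in each 143B list.

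FOXC1, a mesoderm factor, had a stop codon site with p-values of 3.2e-16, 6.3e-13, 2e-17 and 3.2e-20. Its coding sequence site had the highest fold of all regulator sites in 143B NC, 32.6, and was lost in U2OS. FOXD1 had a coding sequence site with folds of 19.3, 7.63, 27.4 and 8.31. FOXA2 and FOXF1, factors of endoderm and lung mesenchyme, had sites in all lists that overlapped, with lowest p-values in 143B shMETTL14 of 5e-27 and 1.3e-19. FOXC2 and FOXL1, neighbours of FOXF1 on chromosome 16, were listed in 143B alone, with 3 and 2 sites for FOXC2 and 1 and 1 for FOXL1. FOXO6 and FOXS1 were listed in U2OS alone, with lowest p-values of 4e-14 and 1e-06 for FOXO6 and of 7.1e-08 and 3.2e-05 for FOXS1.

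FOXO4, a target of insulin signalling, had 2 sites in U2OS NC, 0 in U2OS shMETTL14, 0 in 143B NC and 1 in 143B shMETTL14. Its 5' UTR site on chromosome X, at 70316136 to 70316315, had a fold of 3.85 in U2OS NC (p-value 0.00074) and of 23.3 in 143B shMETTL14 (1.9e-06). FOXD3 was listed in 143B NC alone (fold 20.9, p-value 1.5e-05) and FOXF2 in 143B shMETTL14 alone (21.1, 7.4e-06). FOXJ2 had no peak in 143B NC, with p-values of 8.3e-05, 0.0022 and 0.00017 elsewhere. FOXH1 had a 3' UTR site with p-values of 3.2e-13, 2e-21 and 0.00046 and none in 143B shMETTL14. In each of those 3 lists the FOXH1 site overlapped a site of KIFC2 on the opposite strand. Since strand-specific sequencing is not stated, the reads of these neighbours cannot be told apart.

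GATA2 and GATA4 were the only GATA genes with a peak, of 6. GATA2, a factor of blood stem cells and endothelium, had a stop codon site in 143B with folds of 4.5 and 3.18 and p-values of 2e-16 and 7.9e-17. GATA4, a heart and gut factor, had 1, 0, 3 and 3 sites. Its 3' UTR site with a fold of 25.7 in U2OS NC had folds of 4.15 and 3.93 in 143B. In 143B, 0 of 4 GATA sites were lost (against 24.6% of all sites) and 0 of 4 gained (against 32.0%), counts too small for a firm share.

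Of the T-box genes, TBX15, a factor of skeletal development, had 2, 2, 3 and 3 sites. In 143B its stop codon site had the lowest p-values of all regulator sites, 1e-151 in NC and 1e-191 in shMETTL14, with folds of 4.8 and 6.15. In U2OS, overlapping 3' UTR sites had lowest p-values of 1e-05 and 3.7e-05. TBX18 had 1 coding sequence site in every list with folds of 12.8, 7.26, 7.17 and 5.54. TBX3 had 1 site per list, at 3 different places, none of which was shared within a line. TBX1, a gene of the pharyngeal arches, had 2 and 1 sites in 143B alone, with lowest p-values of 2e-10 and 3e-05. TBX2 had 2 sites in 143B NC alone (lowest p-value 1.5e-05), and TBX20 had 1 in 143B shMETTL14 alone (3e-05). In total 1 of 4 T-box sites was lost in U2OS (25.0%, against 31.2% of all sites) and 4 of 9 in 143B (44.4%, against 24.6%). TBX2 alone gave 2 of the 4 losses in 143B, and these counts are too small for a firm share.

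Among the paired-box (PAX) and sine oculis genes, SIX4 had 4 sites in each list, and every one overlapped across the 4 lists. Its stop codon site had p-values of 2.3e-07, 1.2e-09, 7.9e-16 and 1e-17. SIX5 had 1 site in U2OS alone, near its start codon, with folds of 24.4 and 9.44 and p-values of 9.8e-09 and 2.6e-06. PAX7, a muscle stem cell factor, had 2 and 1 sites in U2OS alone, and none of them overlapped. PAX9 had 2 sites in each 143B list, with p-values of 0.0016 and 0.0028 in NC and of 0.00012 and 0.0005 in shMETTL14. PAX2 and PAX6 were listed in 143B NC alone, with lowest p-values of 6.9e-05 and 0.00015.

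LIM-homeobox genes had no U2OS peak. LHX1, a kidney and head organiser factor, had 3 sites in 143B NC and 4 in 143B shMETTL14, and LHX2 had 1 in each. Of 4 LHX sites in 143B NC 0 were lost (against 24.6% of all sites), and of 5 in 143B shMETTL14 0 were gained (against 32.0%). So few sites give no firm share. The LHX1 3' UTR site at chr17:35300812-35301290 had p-values of 7.2e-08 and 8.7e-09, and the LHX2 site had 5.6e-07 and 3.1e-09.

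The DLX genes, homeobox factors of jaw and bone formation, were listed in 143B alone. DLX1 had 1 and 3 sites, DLX4 1 and 1, and DLX6 2 and 3. The 3' UTR site of DLX1 had p-values of 2.3e-09 and 2e-19, and that of DLX4 had 1.4e-05 and 3e-09. MSX2, a factor of skull and limb growth, had sites at an overlapping place in all lists, with folds of 3.85, 4.22, 6.3 and 4.75. MSX1 had a 3' UTR site in U2OS NC (6.85, 7.6e-05), which was lost, and in both 143B lists (p-values 2.1e-10 and 5.1e-08). In 143B 0 of 6 DLX and MSX sites were lost (against 24.6% of all sites) and 4 of 10 gained (40.0%, against 32.0%). These counts too are small for a firm share.

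TWIST1 and TWIST2 were listed in 143B alone. TWIST1 had a stop codon site with folds of 5.4 and 4.08 and p-values of 2e-13 and 4e-12, and a further site in shMETTL14 (2.38, 0.00066). TWIST2 had 2 sites in the 3' UTR in each list, with folds of 9.13 and 15.7 in NC and 3.8 and 2.92 in shMETTL14. SNAI2, also called Slug, had a 3' UTR site in every list with p-values of 1.4e-10, 0.00019, 8.1e-07 and 2.5e-06, and a coding sequence site in U2OS NC that was lost. SNAI1 and SNAI3 had no peak. TWISTNB had a stop codon site in every list, with lowest p-values of 2.2e-10, 5e-22, 1.6e-52 and 1e-71.

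By position, regulator sites lay in the coding sequence less often than all sites of the same list. Coding sequence held 34.6%, 29.1%, 22.6% and 23.6% of regulator sites, against 46.7%, 47.3%, 43.6% and 42.4% of all sites, and the exact intervals of all 4 shares lie below these values. The stop codon held 17.3%, 20.3%, 24.8% and 27.1%, against 15.3%, 15.2%, 15.7% and 16.1%, and the intervals of the U2OS lists (10.6% to 26.0% and 12.0% to 30.8%) hold the share over all sites. The 3' UTR held 36.5%, 41.8%, 42.1% and 37.5%, against 30.3%, 30.3%, 32.6% and 33.6%, and here the intervals of U2OS NC (27.3% to 46.6%) and 143B shMETTL14 (29.6% to 45.9%) hold it. Among HOX genes the stop codon held 9 of 26, 7 of 19, 14 of 39 and 15 of 40 sites, or 34.6%, 36.8%, 35.9% and 37.5%. For FOX genes the stop codon share was 12.2%, 14.7%, 16.2% and 15.2%, and the 3' UTR share 43.9%, 47.1%, 43.2% and 39.1%. The exact intervals of the HOX share, 17.2% to 55.7% in U2OS NC and 21.2% to 52.8% in 143B NC, exclude the share over all sites. The 3' UTR held 23.1%, 36.8%, 35.9% and 40.0% of HOX sites, in U2OS NC less than the 30.3% of all sites. No site count here was set against transcript structure, so how much 3' UTR or coding length each gene offers was not tested.

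**Figure D5:**
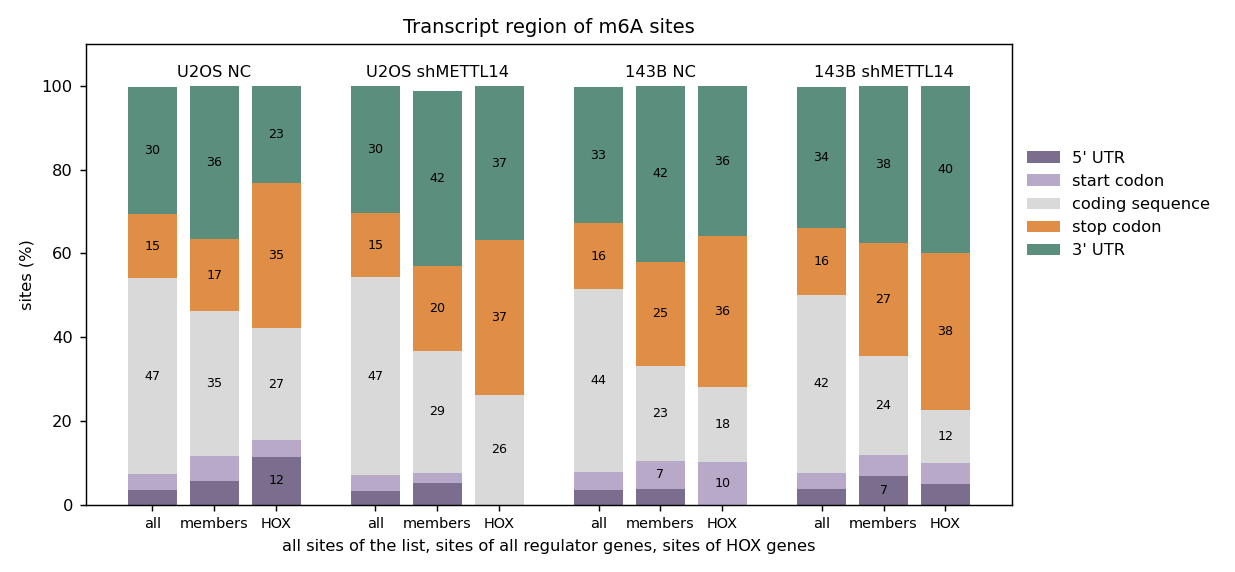
Percent of sites (y axis) in each transcript region for all sites, the sites of the regulator genes (members) and those of the HOX genes in the 4 lists; sites of other regions, at most 1.27%, are not drawn. The stop codon share of HOX sites lies between 34.6% and 37.5% in the 4 lists, where it lies between 15.2% and 16.1% for all sites.

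Losses were also counted by position. Of the regulator sites in U2OS NC, 2 of 18 at the stop codon were lost (11.1%, against 12.8% of all such sites), 17 of 36 in coding sequence (47.2%, against 31.5%) and 11 of 38 in the 3' UTR (28.9%, against 39.3%). In 143B NC, 3 of 33 stop codon sites were lost (9.09%, against 9.99%), 6 of 30 in coding sequence (20.0%, against 23.5%) and 10 of 56 in the 3' UTR (17.9%, against 31.5%). The stop codon shares lie near the background in both lines, as does the coding sequence share in 143B. No interval was computed for losses by position, so whether the other shares differ from the background was not tested.

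The fold enrichment of regulator sites had medians of 4.5, 4.7, 4.78 and 4.28, beside 3.98, 3.92, 4.24 and 4.04 for all sites. The highest values were those of GATA4 (25.7), SIX5 (24.4), HOXB6 (19.3) and FOXD1 (19.3) in U2OS NC. In 143B NC they were those of FOXC1 (32.6), SOX12 (27.4) and FOXD1 (27.4). In U2OS shMETTL14 they were SOX12 (19.0) and SOX18 (16.3), and in 143B shMETTL14 SOX2 (27.7) and HOXB4 (27.3). Equal pairs of values recurred among the high folds. In 143B NC, sites of HOXA4, HOXA13 and SOX18 all had a fold of 17.0 and a p-value of 0.00015, and sites of FOXD3 and TBX2 both had 20.9 and 1.5e-05. The reads behind such values are not given in the lists.

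Over all 4 lists joined, the regulator genes held 184 places, of 18714 in all genes. Of these, 49 were listed in every list (26.6%, against 30.1%) and 37 in both 143B lists and no U2OS list (20.1%, against 7.26%). HOX genes held 12 of the 49 and 12 of the 37, FOX genes 19 and 4, and SOX genes 9 and 2.

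Partners of these factors were read from 7 lists with 60 gene names. Of these, 30, 23, 35 and 36 had a peak, with 51, 43, 63 and 72 sites. In U2OS 14 of their 51 NC sites were lost (27.5%, against 31.2% of all sites) and 3 of 43 gained (6.98%, against 24.9%). In 143B 15 of 63 were lost (23.8%, against 24.6%) and 25 of 72 gained (34.7%, against 32.0%), so all but the gains in U2OS lie near the background. Among chromatin regulators of HOX genes (Polycomb subunits such as EZH2, SUZ12 and BMI1, and the opposing MLL and demethylase genes), 14, 9, 10 and 14 of 18 names were listed. In U2OS 7 of their 19 NC sites were lost (36.8%, against 31.2% of all sites) and 1 of 13 gained (7.69%, against 24.9%). In 143B 2 of 15 were lost (13.3%, against 24.6%) and 15 of 28 gained (53.6%, against 32.0%). The demethylase gene KDM6B had 4, 3, 3 and 6 sites, KDM6A 1, 0, 1 and 3, and MEN1, which encodes menin, 1, 0, 0 and 2. EZH2 had 1, 1, 1 and 2 sites, and BMI1 2 in every list.

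Of the 30 partner genes in both 143B lists, 6 had no U2OS peak (20.0%, exact 95% interval 7.71% to 38.6%), against 10.9% of all genes, which the interval holds. They were IRX2, EYA4, PAXIP1, ZFPM2, ZEB2 and TLE4. EYA4, a cofactor of sine oculis factors, and ZFPM2, a GATA cofactor, had 0, 0, 2 and 2 and 0, 0, 3 and 3 sites. IRX2 had 0, 0, 3 and 3, and ZEB2, which acts beside TWIST and SNAI factors in the mesenchymal state, 0, 0, 4 and 2. ZEB1, the relative of ZEB2, had 4, 4, 2 and 2. LDB1 and LMO4, partners of LIM-homeobox factors, had peaks in all 4 lists although the LHX genes had none in U2OS. TCF3, TCF4 and TCF12, partners of TWIST factors, also had peaks in all 4 lists.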

How the data were processed

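The data are 4 m6A peak lists, 1 for each immunoprecipitated library of the 8 libraries; the labels name an anti-m6A antibody, total RNA taken with Trizol, and lentiviral hairpins. HISAT2, Trimmomatic and FastQC 0.11.5 are named, per the submitters' processing notes, with the human build hg19 (GRCh37). Not given in the sources used here are the annotation and the peak caller with its settings. Per the file headers, each peak has a position, a transcript, a gene, spliced blocks and a transcript region. The fold enrichment is a linear ratio deposited by the authors, and the p-value of each peak was likewise made and deposited by the authors. Read depth is unknown.

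Groups were taken from the sample titles. The members and gene lists were chosen with earlier results of these data known. Values in full go to members listed in 1 list of a line, with 4 or more sites, listed in 1 line, with high folds, or with sites all kept or mostly lost; the others appear as counts. Peaks were joined to sites, and sites were shared where blocks on the same strand had at least 1 bp in common. A site takes the most frequent region of its peaks. Regions that hold the start or stop codon span it. Intervals of shares are exact (Clopper-Pearson, 95%) and cover counting error only. None was computed for losses and gains by family, by transcript region, by peak strength or among partners. With 1 list per group, no test between conditions was made. The site overlap was tested on simulated losses. RefSeq symbols come from a GRCh38.p14 table, used for names only; 87 of 88 members matched by symbol and 1 by an older name. No site sequence is printed, since an hg19 genome was not used here. Coordinates count from 1. The software was scipy 1.17.1, pandas 2.3.3, numpy 2.4.6 and matplotlib 3.10.9 under Python 3.11.15. Results of some genes are not reported here; counts include them.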

Additional observations from a re-analysis of the deposited data

Results flagged for a closer look

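The regulator genes went in opposite directions in the 2 lines by number. In U2OS the number of sites in shMETTL14 was 0.76 times that in NC, and the number of listed peaks 0.688 times. In 143B the ratio was 1.08 for sites and 1.08 for listed peaks. The whole lists went the same way, with 11699 (NC) and 10822 (shMETTL14) sites for U2OS and 12258 and 12886 for 143B. The difference between the lines was not tested, as each group has 1 list.

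Of the 88 genes, only SOX17 and FOXO4 had a peak in U2OS NC and 143B shMETTL14 and in neither of the other lists. This is 2.27% of the regulator genes, against 1.85% of all genes, a share near the background. SOX17 had -1 site in U2OS (shMETTL14 minus NC) and 1 more in 143B, at an overlapping place in its coding sequence. FOXO4 had -2 sites in U2OS and 1 more in 143B, where the 143B site overlaps 1 of the 2 U2OS sites. These differences between the lines were not tested either.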

How the results depend on the processing

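The 6 shares and 4 counts of genes that answer the comparisons were recomputed in 70 ways, of which 64 stayed close to the reported value. Some of the 64 were fixed in advance. All regulator sites lay on chromosomes 1 to 22 and X, so the restriction to these could not change a regulator share or count. Ignoring the strand also left all 6 regulator shares as they were. Close means a share inside its reported exact interval, or a count within 1.5-fold of the reported one. The distance from the share over all sites was not part of this rule. The settings changed the overlap (50% of the shorter site, or within 100 bp), the unit, the peaks used, the strand, the spans, the chromosomes and, added after the data were seen, TWISTNB and the filters on the gene counts. With only peaks at or below the NC list's median p-value, gains in U2OS were 1 of 33 sites (3.03%, against 19.0% of all sites) and losses in 143B 8 of 70 (11.4%, against 14.9%). With that filter, 5 genes of the 143B NC list had no 143B shMETTL14 peak (9 without it) and 13 of the shMETTL14 list no NC peak (8 without it). With the 50% of peaks of each list that had the highest folds, 3 genes of U2OS shMETTL14 had no U2OS NC peak (0 without it) and 15 of 143B shMETTL14 no 143B NC peak. With the same filter, 48.9% of regulator sites in 143B NC had no U2OS NC site, against 47.7% of all sites. That share then lies near the background. With only peaks at or below the U2OS NC median p-value it was 51.5%, against 33.4%. These filters leave fewer sites. With an overlap of at least 50% of the shorter site, gains in U2OS were 15 of 79 (19.0%). The exact interval of that share holds the 28.2% of all sites, so the distance from the background depends on the overlap rule. In the other settings the share over all sites lay above the interval of the gains in U2OS. Of 287 alternatives for the 42 counts of genes whose sites were all lost or gained in a line, 283 stayed the same. The others were the lost and the gained site of HOXC10 in U2OS and of HOXC11 in 143B, which fell to 0 where sites within 100 bp counted as shared. Only the 100 bp gap, the whole spans and the ignored strand, with 42 alternatives each, could change such a count. A stricter overlap, listed peaks, fewer peaks or fewer chromosomes cannot make a site without a partner a shared one. Where a filter removed a gene's peaks there was no value. Depth limits every missing site. No paired analysis was possible because each group has 1 library of each kind.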
